A study of Mus musculus with 131 samples.

Results

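CpG-dense windows are stretches of 200 bp in which at least 15 CpG cytosines, counted on both strands, were covered in at least 1 of 3 bisulfite libraries. A window also needed a call in all 3 libraries and a place on an autosome. By this rule 141280 of the 7409496 autosomal windows covered in all 3 libraries (1.91%) were CpG-dense. The libraries are the whole-genome bisulfite part of a mouse study of 131 samples that placed embryonic stem cells (ESCs) into host embryos. All 3 came from cultured cells of strain C57BL/6J: ESCs that carry an Actin-RFP transgene (labelled p10), ESCs homozygous for the Gjb2 35delG allele per the design text (labelled p7), and wild-type mouse embryonic fibroblasts (MEF, labelled p2). Each kind is 1 library, so every difference below is a difference between libraries with no replicate check, and no test was run. Line, genotype and passage differ together between the ESC libraries and cannot be told apart.

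In mammals most CpG sites are methylated, and methylated cytosines are lost by mutation over evolution, so CpGs are rare in most of the genome. CpG islands are the exception, short stretches rich in CpGs that mostly start genes and stay free of methylation in nearly all cells. Islands of genes used only in germ cells, of imprinted genes on 1 parental allele and of the inactive X chromosome are the known cases of methylated islands. Fibroblasts are differentiated cells, while ESCs keep the ability to form all tissues of the embryo.

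The 5 sequences printed here show what such windows look like and how far their levels can lie apart. The first 4 are whole dense windows just upstream of a gene start and outside any annotated gene, each the one with most CpGs among those with the same pattern of methylation and 100 or more calls in every library. The last is the 250 bases before the start of Tcl1, whose final bases enter a dense window. Every CpG is in capitals, sequences run 5′ to 3′ along the gene, and they are from RefSeq on GRCm38.p6.
Ptprk, chr10:28074601-28074800, plus strand: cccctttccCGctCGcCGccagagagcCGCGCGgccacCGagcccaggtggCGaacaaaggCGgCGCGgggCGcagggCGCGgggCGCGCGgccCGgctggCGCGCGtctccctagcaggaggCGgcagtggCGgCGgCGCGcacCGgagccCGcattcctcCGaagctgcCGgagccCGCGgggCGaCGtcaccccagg
Fam178b, chr1:36683201-36683400, minus strand: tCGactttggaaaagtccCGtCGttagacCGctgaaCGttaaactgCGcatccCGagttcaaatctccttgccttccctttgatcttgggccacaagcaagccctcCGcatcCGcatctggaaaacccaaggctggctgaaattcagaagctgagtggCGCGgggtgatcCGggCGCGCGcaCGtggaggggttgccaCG
Zfp560, chr9:20385201-20385400, minus strand: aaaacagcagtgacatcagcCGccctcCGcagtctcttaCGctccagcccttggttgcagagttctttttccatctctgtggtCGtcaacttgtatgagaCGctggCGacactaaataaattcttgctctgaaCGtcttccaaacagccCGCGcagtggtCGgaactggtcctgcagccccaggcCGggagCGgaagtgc
B3galt5, chr16:96235601-96235800, plus strand: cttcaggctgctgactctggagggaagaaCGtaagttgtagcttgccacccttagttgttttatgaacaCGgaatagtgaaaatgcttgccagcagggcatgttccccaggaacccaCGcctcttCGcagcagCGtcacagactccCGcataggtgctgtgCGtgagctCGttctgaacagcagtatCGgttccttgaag
Tcl1, chr12:105222738-105222987, minus strand: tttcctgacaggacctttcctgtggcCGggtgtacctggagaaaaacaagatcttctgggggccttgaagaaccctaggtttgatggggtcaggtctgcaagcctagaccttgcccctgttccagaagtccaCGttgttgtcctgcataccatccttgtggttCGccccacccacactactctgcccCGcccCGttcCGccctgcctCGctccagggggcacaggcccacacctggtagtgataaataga

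The Ptprk window, upstream of a receptor tyrosine phosphatase gene, holds 34 CpGs at a GC content of 80% and stood at 1.11% methylation in Actin-RFP ESCs, 2.61% in Gjb2-35delG ESCs and 3.0% in MEF. The Fam178b window, with 17 CpGs, stood at 9.97% in Actin-RFP ESCs (95% Wilson interval of the pooled calls 7.11% to 14.6%, 253 calls), 22.2% in Gjb2-35delG ESCs (14.7% to 26.3%, 181 calls) and 96.9% in MEF (91.5% to 98.7%, 117 calls). It was thus methylated in MEF alone. The Zfp560 window, upstream of a zinc finger gene, holds 12 CpGs and stood at 17.4% in Actin-RFP ESCs, 58.7% in Gjb2-35delG ESCs (52.9% to 66.5%, 197 calls) and 4.03% in MEF. The B3galt5 window, upstream of a galactosyltransferase gene, holds 9 CpGs and stood at 13.5% in Actin-RFP ESCs, 51.8% in Gjb2-35delG ESCs (43.8% to 60.6%, 132 calls) and 78.1% in MEF. Its Gjb2-35delG interval spans 50%. Intervals cover counting error only and treat every call as independent. Calls within a window can come from the same read, so the intervals may be too narrow. Of the dense windows that met the conditions for printing, 255 were unmethylated in all 3 libraries, 5 were methylated in 1 or 2, and none in all 3.

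The files count cytosines on both strands, so 15 cytosines stand for about 8 CpG sites, and even numbers prevail. Just outside the threshold, 70311 windows had 14 cytosines, with mean levels of 39.2% in Actin-RFP ESCs, 62.4% in Gjb2-35delG ESCs and 74.8% in MEF. Just inside it, 9850 windows had 15 and 38204 had 16. Windows with 16 averaged 37% in Actin-RFP ESCs, 58.9% in Gjb2-35delG ESCs and 71.3% in MEF. Windows with 15 averaged 34.5% in Actin-RFP ESCs, 53.5% in Gjb2-35delG ESCs and 65.1% in MEF, below those with 14 and those with 16. A further 11929 windows reached 15 cytosines in a library but had no call in another, and were left out. Where called, they averaged 10.9% in Actin-RFP ESCs, 31.2% in Gjb2-35delG ESCs and 44.2% in MEF. The dense windows that were kept averaged 28.2%, 44.3% and 54.6%, so the levels given here leave out a less methylated part. The letters CG, which read the same on both strands, were counted in the 15089 windows that lie wholly within a RefSeq promoter sequence. At least 1 CG was in 89.9% of them. The 3878 dense windows among them held a median of 15 CpGs, from 7 to 43, against a median of 3 in those that were not dense. A GC content above 50% together with an observed over expected CpG ratio above 0.6, the usual marks of an island, were met by 82.6% of these dense windows. Of the windows with 25 or more CpGs, 55% lacked a call in a library, against 16% of those with 10 to 14 CpGs, so the most CpG-rich sequence is the least completely covered.

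The name of island holds for some of these windows only. Dense windows with at most 1 other window between them were joined into 93916 runs, and 73.9% of these runs were 1 window long and held 49.1% of all dense windows. Of such lone windows 10.4% lay in a promoter, 55.2% in a gene body and 34.4% outside genes. Of the windows in runs of 5 to 9, 72.2% lay in a promoter. A promoter here means within 1000 bp of a gene start. For the 7586 of 34610 genes for which no strand was at hand, both gene ends counted as starts, so a level given for such a gene may belong to its 3′ end.

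Depth was alike across the libraries, with 319, 288 and 317 M calls over all windows in Actin-RFP ESCs, Gjb2-35delG ESCs and MEF. The median dense window rested on 163 calls in Actin-RFP ESCs, 124 in Gjb2-35delG ESCs and 134 in MEF, and the thinnest on 5. The rule asks for 15 cytosines in 1 library only, and 82.2%, 63.4% and 67.9% of the windows reached that number in the same order. All 5 ESC markers checked (Pou5f1, Nanog, Zfp42, Dppa4 and Dppa5a) had promoter levels, over dense and other windows together, below those of MEF in both ESC libraries, Nanog for example at 2.12%, 4.13% and 44.9%. Of 5 fibroblast markers, Col1a1, Col1a2, Twist2 and Prrx1 were lowest in MEF, and Thy1 was highest there (22% in Actin-RFP ESCs, 42.8% in Gjb2-35delG ESCs, 63.7% in MEF).

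Dense windows were less methylated than the rest of the genome in each library, and their levels fell into separate peaks. The mean level was 28.2% in Actin-RFP ESCs, 44.3% in Gjb2-35delG ESCs and 54.6% in MEF, against 38.7%, 68% and 79.6% in all other autosomal windows. The median dense window stood at 23.1% in Actin-RFP ESCs, 50.5% in Gjb2-35delG ESCs and 77.4% in MEF. In Actin-RFP ESCs 47.6% of dense windows were below 20%, 50.7% lay between 20% and 80%, and 1.68% were at 80% or more. In Gjb2-35delG ESCs the shares were 39.6%, 38.1% and 22.3%, and in MEF 36.4%, 15.3% and 48.3%. The share below 20% thus differed less between libraries than the share at 80% or more. The upper peak was broad in Actin-RFP ESCs, with its fullest 2-point bin starting at 46%, and narrower in Gjb2-35delG ESCs (80%) and MEF (94%). Outside dense windows, 18%, 3.53% and 1.72% of windows were below 20% in Actin-RFP ESCs, Gjb2-35delG ESCs and MEF.

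**Figure D1:**
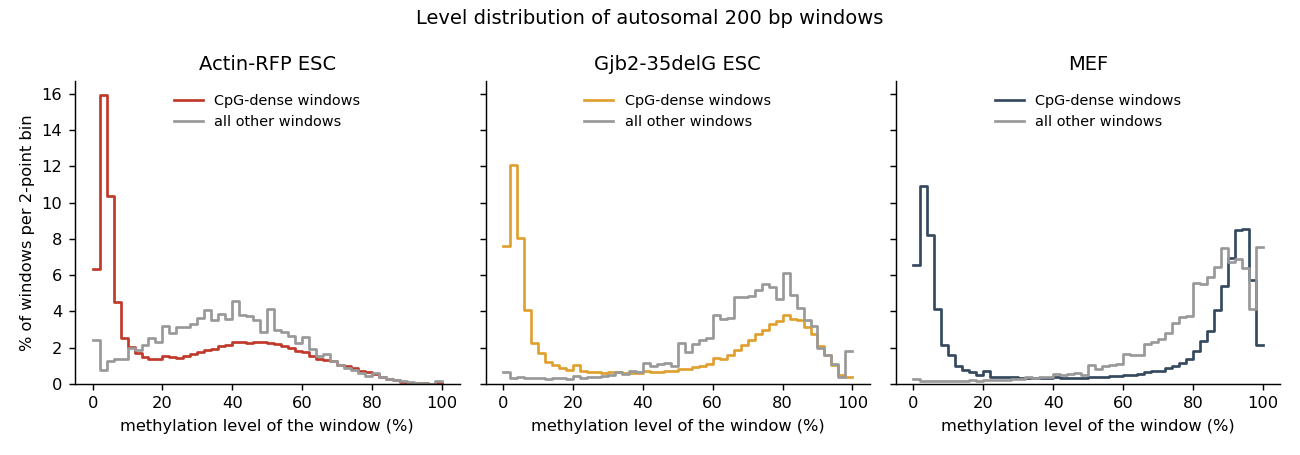
Distribution of methylation levels of autosomal 200 bp windows in each library, as the percent of windows (y axis) in bins of 2 percentage points (x axis), for CpG-dense windows (coloured) and all other windows (grey). Dense windows have a peak below 20% in every library that other windows lack in the Gjb2-35delG ESC and MEF libraries, and an upper peak whose place differs between libraries.

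With a level of 50% or more called methylated, 56067 dense windows (39.7%) were methylated in no library. A further 16571 (11.7%) were methylated in 1, 36165 (25.6%) in 2 and 32477 (23%) in all 3. Among other windows the shares were 3.57% in none, 12.9% in 1, 55.3% in 2 and 28.3% in all 3. Nearly all windows that were methylated in some but not all libraries followed the same order. The pattern of Gjb2-35delG ESCs and MEF without Actin-RFP ESCs held 35523 windows, and that of MEF alone 14025. Methylation in Gjb2-35delG ESCs alone was found in 2533 windows, in both ESC libraries without MEF in 450, in Actin-RFP ESCs and MEF in 192, and in Actin-RFP ESCs alone in 13. The line at 50% cuts through the Actin-RFP distribution, where 21.8% of dense windows lay from 40% to 60%, against 8.15% in Gjb2-35delG ESCs and 3.65% in MEF. Membership of a pattern therefore depends on the line chiefly for the Actin-RFP library. With methylated set at 80% or more 1.53% of dense windows were methylated in all 3 libraries, and set at 20% or more 51.4%. The share methylated in none was 22.3% with a minimum of 12 cytosines, 61.1% with a minimum of 20, and 24.6% with every run weighing the same.

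The patterns differed in where their windows lay. Of the windows methylated in none, 70.3% were in promoters and 16.2% were lone windows, and their median levels were 3.79% in Actin-RFP ESCs, 4.12% in Gjb2-35delG ESCs and 4.49% in MEF. Of those methylated in all 3, 2.99% were in promoters, 49.3% in gene bodies and 47.7% outside genes, with medians of 61.7%, 84.1% and 92.9% in the same order of libraries. Windows of the MEF-only pattern lay in gene bodies in 63.3% of cases and had medians of 14.1% in Actin-RFP ESCs, 29.4% in Gjb2-35delG ESCs and 85.7% in MEF. Windows of the Gjb2-35delG-only pattern had medians of 31.2%, 66.7% and 32.5%. In these data the CpG content also differed, with a median of 22 covered cytosines in windows methylated in none and 17 in those methylated in all 3. Sequence was at hand only for windows wholly within a RefSeq promoter sequence. There, windows methylated in none had a median of 16 CpGs and met the island marks in 84.6% of 3674 cases. Windows methylated in all 3 had a median of 9 CpGs there and met them in 30.6% of 36 cases. These 36 are promoter windows out of 32477 of that pattern, so they do not describe its gene body and distal windows.

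Promoter, gene body and distal windows stood far apart. The 44222 promoter windows had median levels of 3.77% in Actin-RFP ESCs, 4.05% in Gjb2-35delG ESCs and 4.37% in MEF, and 89.1% of them were methylated in no library against 2.19% in all 3. The 61117 gene body windows had medians of 36.4% in Actin-RFP ESCs, 68% in Gjb2-35delG ESCs and 88.2% in MEF, with 18.9% methylated in none and 26.2% in all 3. The 35941 distal windows had medians of 45.6%, 76.6% and 89.1%, with 14.2% methylated in none and 43.1% in all 3. Distal windows were thus more often methylated in all 3 libraries than gene body windows, while their MEF medians were within 1 point of each other. No annotation of islands or repeats was used, so distal windows were not split into islands, repeats and other sequence. At 50% or more stood 43.9% of distal and 26.8% of gene body windows in Actin-RFP ESCs, 74.9% and 66.4% in Gjb2-35delG ESCs, and 82.9% and 78.6% in MEF.

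**Figure D2:**
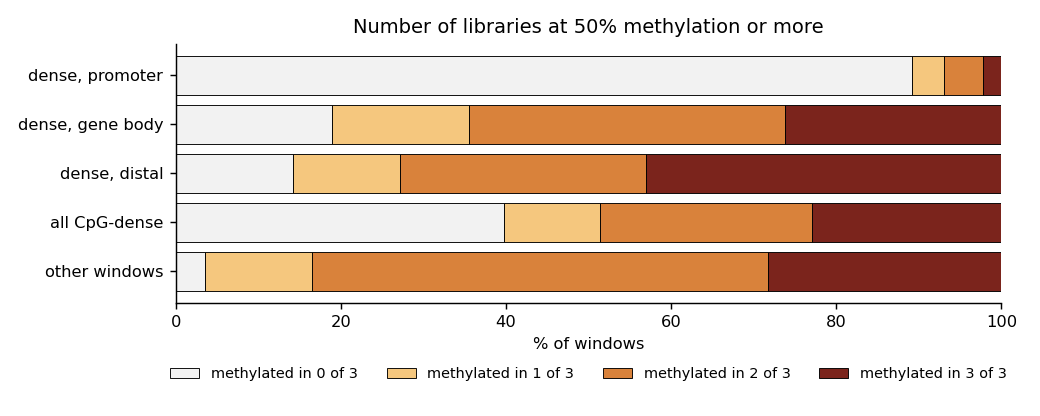
Share of windows (x axis, percent) at 50% methylation or more in 0, 1, 2 or 3 of the 3 libraries, for dense windows in promoters, gene bodies and outside genes, for all dense windows and for all other autosomal windows. The unmethylated share is 89.1% in promoters and 14.2% outside genes.

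The place of a window and its CpG number each went with its level. Among promoter windows the mean was 11.7% in Actin-RFP ESCs, 19.09% in Gjb2-35delG ESCs and 23.2% in MEF at 15 to 19 cytosines, and 3.52%, 4.35% and 5.03% at 40 or more. Among gene body windows it was 38%, 61.5% and 77.1% at 15 to 19 cytosines, and 5.15%, 8.30% and 16.1% at 40 or more. Distal windows kept higher levels to higher CpG numbers, with means of 30.9% in Actin-RFP ESCs, 42.6% in Gjb2-35delG ESCs and 51.6% in MEF at 30 to 39 cytosines. Promoter windows of the same CpG number averaged 3.95%, 4.98% and 5.74%. Below the threshold, gene body windows with 1 to 14 cytosines stayed between 80.9% and 81.6% in MEF whatever their CpG number, so in gene bodies the fall with CpG number begins at about the threshold. The share of promoter windows grew with CpG number, being 18.6% at 15 to 19 cytosines and 79.6% at 40 or more.

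**Figure D3:**
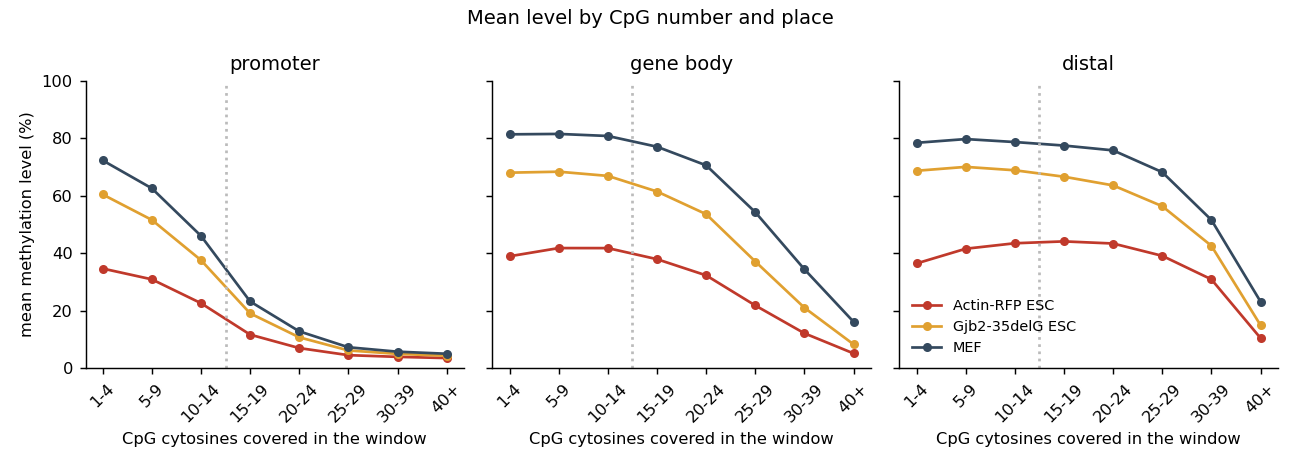
Mean methylation level (y axis, percent) of autosomal windows by the number of covered CpG cytosines (x axis) in promoters, gene bodies and outside genes, with 1 line for each library. The dotted line marks the threshold of dense windows. Promoter levels fall over the whole range. Gene body and distal levels fall only at higher CpG numbers, and in Actin-RFP ESCs they are higher at 5 to 14 cytosines than at 1 to 4.

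Length of the run went the same way. Promoter windows that stood alone averaged 17.8% in Actin-RFP ESCs, 29.9% in Gjb2-35delG ESCs and 36.7% in MEF, and those in runs of 3 or more 4.57%, 6.28% and 7.33%. Gene body windows averaged 40.1%, 64.9% and 80.7% alone and 17.3%, 30.1% and 44% in runs of 3 or more. Directly neighbouring dense windows had much the same level. Over 39746 such pairs the median difference within a pair was 2.36 points in Actin-RFP ESCs, 3.17 in Gjb2-35delG ESCs and 2.88 in MEF, and 96.6%, 96.9% and 98.1% of pairs lay on the same side of 50%. Methylated in no library were 38.8% of windows in runs of 2, 75.8% in runs of 3 to 4 and 90.2% in runs of 5 to 9. Pairs of methylated windows were not described apart.

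Around gene starts with a known strand, levels formed a trough. In the 200 bp just upstream of the start, 6291 dense windows averaged 5.54% in Actin-RFP ESCs, 7.82% in Gjb2-35delG ESCs and 9.07% in MEF. The mean at 1600 to 1800 bp downstream was 18.9%, 31.9% and 43.1%, and at 1600 to 1800 bp upstream 24.3%, 40.3% and 52.4%. The trough thus reached farther into the gene than upstream of it in all 3 libraries. By 4600 to 4800 bp downstream the means were 33.1%, 53.8% and 69.6%.

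**Figure D4:**
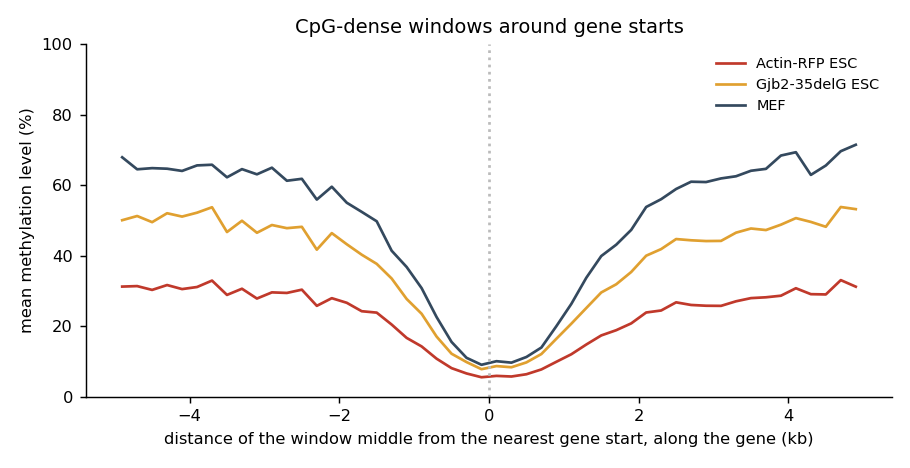
Mean methylation level (y axis, percent) of CpG-dense windows in bins of 200 bp by the distance from the nearest gene start with a known strand (x axis, kb, positive into the gene), 1 line for each library. In the bin just upstream of the start the means are 5.54%, 7.82% and 9.07%, and the libraries part with distance.

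Against MEF, lower levels were common in Actin-RFP ESCs and higher ones rare. A gap of 30 points or more below MEF was found in 63163 dense windows (44.7%), against 71.4% of all autosomal windows, and one above MEF in 257 (0.182%), against 0.276%. By place, 9.32% of promoter, 65.6% of gene body and 52.7% of distal dense windows lay 30 points or more below MEF. A window below 30% in MEF cannot be 30 points lower, and 85.5% of the promoter windows were below 20% in MEF. Among dense windows at 80% or more in MEF, the Actin-RFP median was 38.5% in promoters (3023 windows), 44.3% in gene bodies (39880) and 54.9% outside genes (25308). Below 20% were 19.2%, 12.2% and 8.36% of them. Windows of 5 to 9 cytosines that were as high in MEF had Actin-RFP medians of 43.8%, 45.5% and 45.5% in promoters, gene bodies and outside genes. Dense windows that were methylated in MEF hence differed more by place in the Actin-RFP library than sparse ones did.

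Gjb2-35delG ESCs stood closer to MEF. A gap of 30 points or more below MEF was found in 18801 dense windows (13.3%), against 14.3% of all autosomal windows, and one above MEF in 2623 (1.86%), against 2.53%. These shares are near those of the whole genome, but a window below 30% in MEF cannot be 30 points lower. In MEF 36.4% of dense windows were below 20%, against 1.72% of other windows. By place, 3.80% of promoter, 20.1% of gene body and 13.5% of distal dense windows lay 30 points or more below MEF. Of the dense windows at 80% or more in MEF, the Gjb2-35delG medians were 71.9% in promoters, 75% in gene bodies and 81.5% outside genes, the same order of places as in Actin-RFP ESCs. Between the ESC libraries, 32366 dense windows (22.9%, against 48.2% of all autosomal windows) lay 30 points or more below Gjb2-35delG in Actin-RFP ESCs, and 91 (0.0644%, against 0.126%) as far above. Of these 91 windows 61.5% had under 50 calls in 1 of the 2 libraries, compared with 12.7% of all dense windows, and 35 had 50 or more in both. The same limit holds for the lower share between the ESC libraries. In Gjb2-35delG ESCs 39.6% of dense windows were below 20%, against 3.53% of other windows. Of the 257 windows higher in Actin-RFP ESCs than in MEF, 212 had 50 calls or more in both.

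Genes were then described by the mean over their dense promoter windows, for the 9895 genes with 3 or more such windows. Their medians were 3.71% in Actin-RFP ESCs, 4.07% in Gjb2-35delG ESCs and 4.51% in MEF. Without predicted genes 8447 were left, of which 8275 (98%) were methylated in no library, 85 in MEF alone, 64 in Gjb2-35delG ESCs and MEF, 15 in Gjb2-35delG ESCs alone and 8 in all 3. None was methylated in Actin-RFP ESCs without the other libraries. For each of 5 orders of the libraries, the 8 genes with the largest values are named below. These genes were chosen by the levels they are described with, so the values carry no test.

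Among the 8 genes methylated in all 3 libraries, H1f7, the linker histone of spermatids, stood at 64.9% in Actin-RFP ESCs, 91.2% in Gjb2-35delG ESCs and 89.3% in MEF over 3 windows. Dpep3, a dipeptidase of the testis, stood at 60.7%, 84.2% and 91.7%, and Tssk2, a kinase of spermatids, at 58.8%, 78.1% and 93.9%. Actl7b, an actin-like protein of the testis, had 50.6% in Actin-RFP ESCs, and the tubulin gene Tuba3b 54.1%. Hcar1, the receptor for lactate, is expressed in fat and stood at 54.1%, 83.9% and 82.3%. Igf2os, the antisense transcript of the imprinted Igf2, and Slc27a6, a fatty acid transporter, were read at ends of unknown strand. The 3 windows of Igf2os ranged widely, 0.0% to 86.7% in Actin-RFP ESCs, 4.08% to 92.8% in Gjb2-35delG ESCs and 5.75% to 98.1% in MEF, so its mean describes no window.

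Genes higher in MEF than in both ESC libraries had the largest gaps. Tcl1, a co-activator of the kinase Akt that is expressed in ESCs, stood at 4.74% in Actin-RFP ESCs, 7.08% in Gjb2-35delG ESCs and 90.1% in MEF. Its lowest window in MEF, at 84.1%, overlaps the sequence printed above, and its highest window in an ESC library was at 11.6%. No window of Tcl1 in an ESC library reached the range of its windows in MEF. Slc7a7, a subunit of a transporter of basic amino acids, stood at 9.86%, 8.47% and 79.2%, and its 4 windows ran from 39.8% to 97.6% in MEF. Fam178b, whose window is printed above, stood at 13.2%, 24.4% and 93.5%. Dmrtb1, a transcription factor of male germ cells, stood at 11.6%, 21.6% and 88.8%, and Hsf5, a heat shock factor of the testis, at 13.9%, 25.7% and 91.5%. Pabpc6 (a poly(A)-binding protein gene, read at an end of unknown strand), Ube2d2b (a ubiquitin-conjugating enzyme) and Sap25 (a Sin3 complex protein) completed the set. Their levels were 19%, 29% and 20.5% in Gjb2-35delG ESCs, and 93.6%, 96.8% and 87.2% in MEF.

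Genes higher in both ESC libraries than in MEF showed smaller gaps. H2-T23, a non-classical MHC class I gene, stood at 23.2% in Actin-RFP ESCs, 36.8% in Gjb2-35delG ESCs and 6.43% in MEF. All 4 of its windows were higher in both ESC libraries. Cldn11, a claudin of tight junctions, stood at 24.5%, 54.4% and 7.94%, and Car4, a membrane-bound carbonic anhydrase, at 19.7%, 46.7% and 7.10%. Cck, the gene of the hormone cholecystokinin, stood at 20.4%, 39.1% and 7.81%. Tuba8, Prdm8, Rgl3 and Rsph3b completed the set, with MEF levels from 3.45% to 8.26% and gaps to the lower ESC level from 11.4 to 12.6 points. All 8 genes were below 25% in Actin-RFP ESCs, and in Gjb2-35delG ESCs they ran from 16.1% in Rsph3b to 54.4% in Cldn11. Of the 9895 genes, 0 (0%) were 30 points higher in Actin-RFP ESCs than in MEF, and 29 (0.293%) in Gjb2-35delG ESCs.

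Between the ESC libraries the genes were unevenly matched. Gask1b, a Golgi protein gene, stood at 14.3% in Actin-RFP ESCs, 72.5% in Gjb2-35delG ESCs and 18.3% in MEF. Its windows lay from 9.43% to 18.4% in Actin-RFP ESCs and from 67.9% to 76% in Gjb2-35delG ESCs, with no overlap. Odf2l, related to a sperm tail protein, stood at 8.45%, 57.7% and 7.44%, and Chst5, a sulfotransferase, at 13.7%, 61.4% and 17.3%. These genes were thus high in Gjb2-35delG ESCs alone. Plce1, a phospholipase C, stood at 12.2%, 67.9% and 94.9%, and Fkbp6, needed for meiosis in males, at 28.3%, 81.6% and 90.3%. Zim3, a zinc finger gene read at an end of unknown strand, stood at 14.1%, 70.6% and 85.4%. Noxa1, an activator of an NADPH oxidase, and Klb, the co-receptor of FGF21, were at 81.7% and 72.7% in Gjb2-35delG ESCs, and intermediate in MEF at 44.5% and 44.3%.

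The largest excess of Actin-RFP over Gjb2-35delG ESCs was 20.7 points, in Trmt61a, a tRNA methyltransferase gene at 22.8% in Actin-RFP ESCs, 2.15% in Gjb2-35delG ESCs and 3.88% in MEF. It rested on 1 of its 3 windows, which stood at 60% from 5 calls in Actin-RFP ESCs (Wilson interval 23.1% to 88.2%). The other windows of Trmt61a were at 3.15% and 5.39% there. Pik3r4, Alyref2, Vps35l, Ggn, Atxn1l, Ube2d3 and Isl1 (Vps35l read at an end of unknown strand) followed with excesses from 6.59 to 13 points. Their windows in Actin-RFP ESCs ran from 2.91% to 40% in Pik3r4, 4.23% to 40% in Ggn and 1.78% to 28.6% in Isl1. The ranges were 0.68% to 22.2% in Ube2d3, 1.85% to 20.4% in Alyref2, 1.16% to 20% in Vps35l and 7.17% to 17.8% in Atxn1l. An excess of the mean therefore need not hold in every window. Of the 9895 genes, 0 (0%) were 30 points higher in Actin-RFP than in Gjb2-35delG ESCs.

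**Figure D5:**
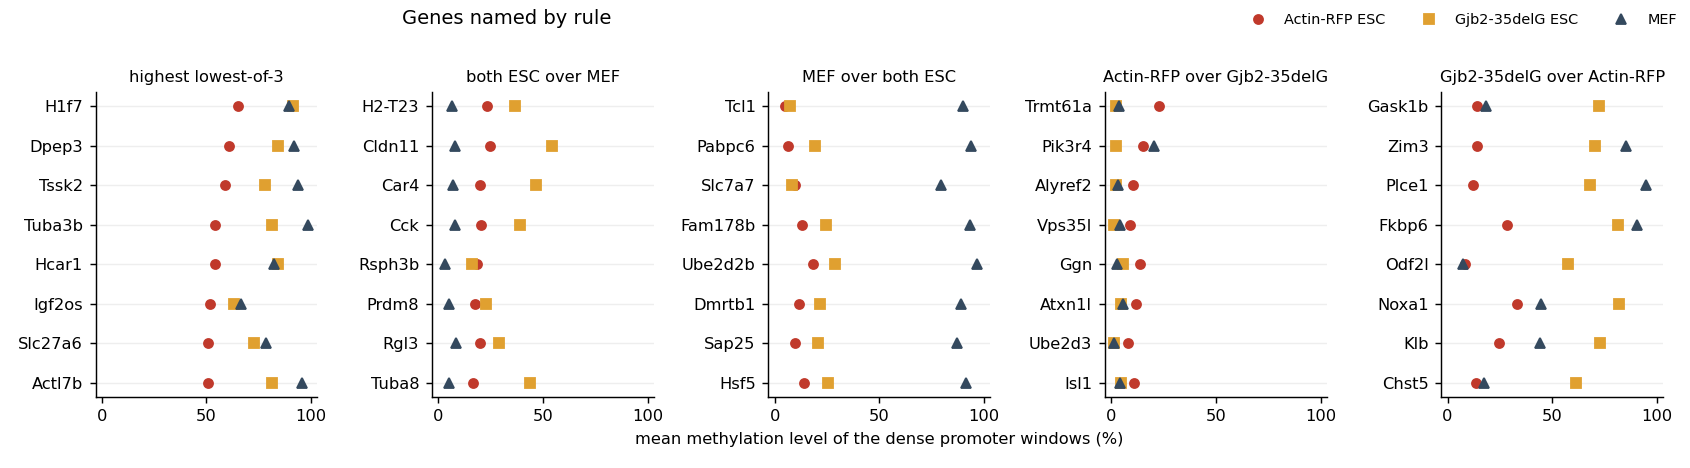
Mean methylation level (x axis, percent) of the dense promoter windows of the genes named by rule, 8 for each of 5 orders of the libraries, with 1 symbol for each library. Gaps are widest for genes higher in MEF and for genes higher in Gjb2-35delG than in Actin-RFP ESCs, and narrow for genes higher in Actin-RFP than in Gjb2-35delG ESCs.

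The 12 lists of genes were described in the same way. Of the germline genes, which act in germ cells and meiosis, 14 of 27 had 3 or more dense promoter windows, with medians of 26.3% in Actin-RFP ESCs, 51.3% in Gjb2-35delG ESCs and 88.9% in MEF. Below MEF by 30 points or more were all 14 in Actin-RFP ESCs, against 2.76% of all genes with 3 or more windows, and 8 in Gjb2-35delG ESCs, against 1.11%. In 5 of the 14 the Actin-RFP level was at least 30 points below that of Gjb2-35delG ESCs, against 1.04%. A gene below 30% in a library cannot lie 30 points below that library, here or in the lists that follow. The medians of all 9895 genes were 4.07% in Gjb2-35delG ESCs and 4.51% in MEF. All 14 germline genes stood at 64.7% or more in MEF, so these shares do not compare genes of like MEF level. Tex19.1, which acts in meiosis and in silencing of retrotransposons, stood at 21.6% in Actin-RFP ESCs, 53.4% in Gjb2-35delG ESCs and 93.4% in MEF. Sohlh2, a transcription factor of early germ cells, stood at 27.8%, 66.6% and 92.8%. Among these 14, Tdrd1, a tudor protein of the piRNA pathway, was lowest in MEF, at 22.3%, 29.1% and 64.7%. The RNA helicase Ddx4 followed at 18.6%, 37.1% and 76%. Of the list genes with 1 or 2 dense windows, Ddx25 stood at 5.6%, 13.3% and 1.59% in 1 window. The others stood at 88.3% or more in MEF.

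Imprinted genes with maternal methylation have 1 methylated and 1 unmethylated allele in somatic cells. The windows read here lie within 1000 bp of a gene start, and whether they cover the imprinted region of a gene was not checked. Of 20 genes 15 had 3 or more dense windows, with medians of 18.9% in Actin-RFP ESCs, 40.9% in Gjb2-35delG ESCs and 46.8% in MEF. Below MEF by 30 points or more were 7 of the 15 in Actin-RFP ESCs, against 2.76% of all genes with 3 or more windows, and 2 in Gjb2-35delG ESCs, against 1.11%. In 4 the Actin-RFP level was that far below Gjb2-35delG ESCs, against 1.04%. A level as far above MEF was found in 1 gene in Gjb2-35delG ESCs, against 0.293%. That gene, Inpp5f, an inositol phosphatase gene, stood at 11.7% in Actin-RFP ESCs, 33.6% in Gjb2-35delG ESCs and 1.11% in MEF. Nap1l5, of the nucleosome assembly protein family, stood at 20.7%, 40.9% and 73%, and Slc38a4, an amino acid transporter, at 19%, 41.9% and 64.9%. Grb10, a growth inhibitor, stood at 11%, 29.3% and 24.2%. Of the paternal list, Meg3, a long noncoding RNA, stood at 33.3%, 51.4% and 62.9%, and Rasgrf1, a Ras exchange factor, at 3.66%, 10.1% and 1.64%.

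Dense promoters of pluripotency genes with 3 or more dense windows were mostly unmethylated in MEF as well. Of 18 genes 11 had 3 or more dense windows, with medians of 3.64% in Actin-RFP ESCs, 3.61% in Gjb2-35delG ESCs and 6.30% in MEF, and 2 lay 30 points or more below MEF in both ESC libraries, beside 2.76% of all genes in Actin-RFP and 1.11% in Gjb2-35delG ESCs. These were Tcl1 and the Nodal co-receptor Tdgf1, which stood at 4.93%, 3.64% and 35.3%. Lin28a, an RNA-binding protein, had 1.78% in MEF and Esrrb, a nuclear receptor, 2.69%. The 3 pluripotency genes with 1 or 2 dense windows were all methylated in MEF. Dppa5a stood at 2.25% in Actin-RFP ESCs, 4.0% in Gjb2-35delG ESCs and 94.4% in MEF, and Dppa4 at 3.23%, 4.69% and 99.3%, both read at an end of unknown strand, while Zfp42, a zinc finger gene of ESCs, stood at 6.47%, 2.21% and 69.5%.

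In the remaining lists, genes with 3 or more dense windows had low medians in all libraries, and the values that follow are of such genes unless a smaller number of windows is given. Of the genes named in these lists, Psmb2, Hsp90ab1, Hoxb6, Hoxb7, Hoxc13, Dlx5, Tbx5, Snai2, Tbx15, Loxl1, Col1a1, Hand1, Mbd1, Mbd2, Gjd3, Cdkn1c, Sfrp1 and Sfrp4 were read at an end of unknown strand. The 13 housekeeping genes had medians of 3.04% in Actin-RFP ESCs, 3.70% in Gjb2-35delG ESCs and 3.4% in MEF, and no level above 10.3%, that of the TATA-binding protein gene Tbp in MEF. The chaperone gene Hsp90ab1 followed at 4.49%, 2.87% and 6.19%, and the lowest in MEF was the proteasome subunit Psmb2 (1.71%). The 24 Hox genes, which pattern the body axis, had medians of 5.55%, 7.21% and 7.28%. Their highest levels in MEF were 22.4% in Hoxb7 and 19.06% in Hoxb6, and the lowest 2.06% in Hoxd3 and 3.19% in Hoxc13. The 20 other developmental regulators had medians of 4.84%, 6.42% and 4.98%, with Neurog2, a neural transcription factor, lowest in MEF at 2.09%, followed by Neurog1 at 2.38%. The homeobox gene Dlx5 was highest, at 15.5%. The 8 fibroblast genes had medians of 4.21%, 5.27% and 4.40%, and Fbn1, the gene of fibrillin, and the transcription factor Snai2 were lowest in MEF at 1.04% and 2.76%. Tbx15, a transcription factor of mesenchyme, stood at 8.58%, 14.9% and 10.9%, and Loxl1, a collagen cross-linking enzyme, at 10.3%, 13.7% and 5.18%.

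Among 10 trophectoderm genes the medians were 5.59% in Actin-RFP ESCs, 5.58% in Gjb2-35delG ESCs and 7.22% in MEF. Hand1, a transcription factor of trophoblast giant cells, and Krt18, a keratin, were highest in MEF, at 26% and 25.3%, and the transcription factors Tfap2a and Gata3 lowest, at 2.80% and 3.04%. The 7 genes of the methylation machinery had medians of 2.95%, 5.63% and 5.75%, with the maintenance methyltransferase Dnmt1 at 5.92%, 7.65% and 17.8%. The 6 windows of Dnmt1 ranged from 0.0% to 93.2% in MEF, so its mean does not hold for every window. The de novo enzyme Dnmt3a followed at 3.97%, 7.54% and 9.18%, and Uhrf1 and Mbd1, which bind hemimethylated and methylated DNA, were lowest in MEF at 2.86% and 2.95%. Dnmt3l, the catalytically inactive partner of the de novo methyltransferases, had 2 dense windows, at 9.08% in Actin-RFP ESCs, 3.76% in Gjb2-35delG ESCs and 85.2% in MEF. Among 6 connexins, Gjb2, the gap junction gene that carries 35delG in the mutant line, was unmethylated in all, at 3.11%, 2.96% and 5.20%. Gjd2 stood at 9.41%, 6.66% and 4.75%, Gja3 at 3.34%, 7.53% and 7.86%, and Gjd3 at 10.6%, 17.1% and 21.8%. The 5 windows of Gjd3 ranged from 2.5% to 66.6% in Gjb2-35delG ESCs and from 0.0% to 85.6% in MEF. Among 11 cell cycle inhibitors and Wnt antagonists, Cdkn1c, an imprinted inhibitor, stood at 9.19%, 17.3% and 42.3%, and lay more than 30 points below MEF in Actin-RFP ESCs. Sfrp4, a Wnt antagonist, had 22.9% in MEF, and the lowest were Cdkn1b (3.23%) and Sfrp1 (3.84%). Apart from Cdkn1c, no gene of these lists with 3 or more dense windows was 30 points apart in its mean level between 2 libraries. Over all genes such shares were at most 2.76%. Single windows of a gene can differ by more.

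Some genes of these lists with 1 or 2 dense windows were not low. Tbx5, a transcription factor of heart and forelimb, stood at 38% in Actin-RFP ESCs, 78.8% in Gjb2-35delG ESCs and 10.8% in MEF over 2 windows. Col1a1, a collagen of connective tissue, stood at 29%, 61.1% and 0.0% in 1 window, and Hoxd1 at 32.2%, 50.5% and 6.22%. In these 3 genes Gjb2-35delG ESCs were highest and MEF lowest. Of the trophectoderm list, Elf5, a transcription factor of trophoblast stem cells, stood at 50.7%, 66.8% and 62.5% in 1 window, and the keratin gene Krt8 at 16.3%, 19.8% and 58.5% in 2. Mbd2, which binds methylated DNA, had 6.00%, 19.7% and 39%, from 2 windows that lay far apart in MEF, at 3.26% and 74.8%.

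Promoter methylation was set beside expression in single cells of E4.0 blastocysts, 55 RFP cells from the injected Actin-RFP line and 40 GFP cells of the host. These cells are not the cultures that were bisulfite-sequenced. Of 8160 protein-coding genes with dense promoters methylated in no library, 88.4% were in the deposited expression table and 44.7% reached 10 CPM over the summed RFP cells and 54.1% over the summed GFP cells. Over all 8325 such genes these shares were 44.1% and 53.5%. Of 59 genes methylated in Gjb2-35delG ESCs and MEF, 61% were in the table, and 6.78% reached 10 CPM in RFP cells and 13.6% in GFP cells. Of 84 genes methylated in MEF alone, 20.2% reached 10 CPM in RFP cells and 23.8% in GFP cells, and of 15 methylated in Gjb2-35delG ESCs alone 13.3% and 46.7%. The cells of a group make up 1 sample, and these shares carry no test.

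Tex19.1 reached 91.6 CPM in RFP cells and 138 CPM in GFP cells at a promoter level of 93.4% in MEF. Sycp1, a protein of the synaptonemal complex with 19.5% in Actin-RFP ESCs and 91.6% in MEF, was at 49.2 CPM in RFP cells and 14.2 CPM in GFP cells. Nnat, an imprinted gene at 8.37% in Actin-RFP ESCs and 54.9% in MEF, was at 159 CPM in RFP cells and 0.424 CPM in GFP cells. These genes were methylated in MEF and were read in blastocyst cells. Fkbp6, at 28.3% in Actin-RFP ESCs and 81.6% in Gjb2-35delG ESCs, was at 15.8 CPM in RFP cells and 83.8 CPM in GFP cells.

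The 5 longest runs included dense stretches without a promoter. A run of 28 windows in Plec, the gene of the cytolinker plectin, at chr15:76172201-76178200, averaged 40.3% in Actin-RFP ESCs, 74.9% in Gjb2-35delG ESCs and 97.3% in MEF, and each of its windows was at 93.8% or more in MEF. It was long and CpG-rich, and every window was methylated in MEF, while its windows ran from 17.6% to 73.3% in Actin-RFP ESCs and from 42.3% to 92.1% in Gjb2-35delG ESCs. A run of 18 windows at the start of Celsr1, a cadherin of planar cell polarity, averaged 31.7%, 48.7% and 63.4%, and its windows spanned 1.18% to 98.9% in MEF. A run of 17 windows at Ptma, the gene of prothymosin alpha, reached at most 8.33% in any window of any library. The longest run, 29 windows within AY036118, averaged 4.60% in Actin-RFP ESCs, 4.96% in Gjb2-35delG ESCs and 27.5% in MEF, with MEF windows from 20.5% to 32.1%. A run of 18 windows on chromosome 13 averaged 3.19%, 3.05% and 3.59%. With predicted genes left out, no annotated gene overlaps it. How reads of repeated sequence were placed was not stated in the sources used here.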

How the data were processed

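Genomic DNA of 3 cell cultures was sequenced after bisulfite conversion of single-stranded fragments, per the labels. For each window of 200 bp the authors deposited a methylation fraction, the mean over its covered CpG cytosines, with the count of methylated and the count of unmethylated calls and the number of cytosines. Which aligner and caller were used was not given in the sources used here. Build mm10 is named in the submitters' processing notes, which also list DESeq2 1.30.0, deepTools 3.3.1, StringTie 2.0, featureCounts 2.0.0, STAR 2.7.3a and fastp 0.20.0 without saying what each was used for. The expression values of the single cells are a signal scaled for each cell by the authors, per the values of the deposited table. For each group its cells were added up and expressed as CPM, with no count model.

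Levels are the deposited fraction times 100. Python 3.11.15, numpy 2.4.6, pandas 2.3.3 and scipy 1.17.1 were used, and the steps were checked on simulated windows. Genes are the 34610 protein-coding and lncRNA genes of RefSeq on GRCm38.p6, and their starts come from 32850 stranded promoter entries. A window midpoint within 1000 bp of a start is a promoter, otherwise within a gene a gene body, otherwise distal. A level of 50% or more is called methylated, and libraries are compared at 30 points. Gene levels are means over 3 or more dense promoter windows. Named genes, without predicted ones, are the 8 with the highest lowest-of-3 level, the 8 with the largest excess of the lower ESC level over MEF and of MEF over the higher ESC level, the 8 with the largest excess of either ESC library over the other, and the 2 highest and 2 lowest of each list in MEF. Of the list genes that this rule names, 2 are not reported here. The 5 longest runs are named. Genes outside this rule were chosen after their values were seen, as were the 4 printed windows. By the rule for sequences the first gene of each class was to be printed, but only those of Tcl1 and Trmt61a overlap a dense window, and Tcl1 is shown. The members and lists were chosen with earlier results of these data known. Each kind of cell is 1 library, so nothing was tested between libraries. Wilson intervals at 95% cover counting error only, since reads carry no molecular identifiers. They treat calls that share a read as independent, so they may be too narrow. Alternatives varied the CpG minimum, the level, the weighing of runs, the depth, the thresholds and the definition of a promoter, the last 2 definitions added after seeing the data.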

Additional observations from a re-analysis of the deposited data

How the results depend on the processing

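Values of the 3 libraries are given for Actin-RFP ESCs, Gjb2-35delG ESCs and MEF. The mean of dense windows was 35.4%, 56.1% and 67.6% with a minimum of 12 cytosines, 19.08%, 29.6% and 37.8% with a minimum of 20, and 34.6%, 54.6% and 66.8% with every run weighing the same. It was 24.9%, 39.9% and 50.5% with at least 150 calls in every library and 26.7%, 42.6% and 53% with 15 cytosines asked of every library. Pooled calls in place of the mean over cytosines gave 28.2%, 44.3% and 54.7%. The order of the libraries was the same under these 6 settings. The shares methylated in 0, 1, 2 and 3 libraries were 33.9%, 7.27%, 7.45% and 51.4% with methylated set at 20% or more and 49.7%, 29.8%, 18.9% and 1.53% with methylated set at 80% or more. They were 22.3%, 12.9%, 36% and 28.9% with a minimum of 12 cytosines, 61.1%, 9.2%, 15% and 14.7% with a minimum of 20, 24.6%, 13.2%, 33.1% and 29% with every run weighing the same, and 44.8%, 11.4%, 24.5% and 19.3% with at least 150 calls. Windows that lay 20 or more and 50 or more points below MEF in Actin-RFP ESCs numbered 76784 and 29570, and those above 704 and 21. Those below MEF in Gjb2-35delG ESCs numbered 31290 and 8164, and those above 4689 and 698. Those below Gjb2-35delG ESCs in Actin-RFP ESCs numbered 57573 and 2943, and those above 253 and 15. Promoter windows averaged 6.49%, 9.65% and 11.4% within 500 bp of a start, 9.11%, 14.4% and 17.9% within 2000 bp, 10.6%, 17.2% and 20.9% with every run weighing the same, 6.6%, 9.9% and 11.7% with starts of known strand only, and 5.93%, 8.79% and 10.5% with protein-coding genes only. Gene body windows averaged 31%, 50.5% and 64.6% with promoters taken within 500 bp of a start, 36.7%, 59.7% and 76.3% with promoters taken within 2000 bp, 38.2%, 62.1% and 78.2% with every run weighing the same, 32.1%, 52.4% and 67% with starts of known strand only, and 34%, 55.7% and 72% with protein-coding genes only. Distal windows averaged 41.8%, 62.6% and 73.5% with promoters taken within 500 bp of a start, 43.9%, 65.4% and 76.7% with promoters taken within 2000 bp, 44.3%, 67% and 78.3% with every run weighing the same, 41.6%, 62.2% and 73% with starts of known strand only, and 40.9%, 61.7% and 72.4% with protein-coding genes only. The last 2 of these settings were chosen after seeing the data. Promoter windows were lowest and distal windows highest in each library under the 5 settings for place. No replicate could be left out, and each kind of cell has 1 library. No paired analysis was possible because no result comes from a test. The precision of a window is limited by calls, 5 at the least, and the most CpG-rich windows often lack a call. The gene starts of 7586 genes lack a strand.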

Other observations

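Dense windows of chromosome X, which the rule leaves out, differed from those of the autosomes most in the promoters of the MEF library. The 311 promoter windows of chromosome X that were covered in all 3 libraries had medians of 3.59% in Actin-RFP ESCs, 4.09% in Gjb2-35delG ESCs and 22.3% in MEF, against 3.77%, 4.05% and 4.37% on the autosomes. Between 20% and 80% lay 13.8%, 11.6% and 41.8% of them, against 8.53%, 11.1% and 7.68% on the autosomes. In female mammals each cell silences an X chromosome, whose islands are methylated, and the labels used here do not give the sex of the cells. The 238 gene body windows of chromosome X had medians of 34%, 64.2% and 87.4%, against 36.4%, 68% and 88.2% on the autosomes. The 582 distal windows of chromosome X had medians of 58.6%, 80.2% and 90.5%, against 45.6%, 76.6% and 89.1% on the autosomes. Calls per cytosine on chromosome X were 6.29 in Actin-RFP ESCs, 5.80 in Gjb2-35delG ESCs and 6.93 in MEF, against 8.73, 7.5 and 7.90 on the autosomes.

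The 19 autosomes kept the same order of the libraries. Chromosome 11 was the lowest, with means of 22.7% in Actin-RFP ESCs, 36.5% in Gjb2-35delG ESCs and 46.6% in MEF, and had the largest share of promoter windows, 38%. Chromosome 10 was the highest in MEF, at 29.8%, 47.3% and 59.5%, with 27.6% of its dense windows in promoters.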
